A study of Homo sapiens with 3 samples.

Results

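Transcript levels of the ubiquitin-conjugating (E2) enzymes were followed in HCT116 cells, an established human colorectal cancer line, after siRNA knockdown of SMARCA4. Members were the probes of gene names made of UBE2, a letter and an optional number, which gave 33 gene names and 45 probes out of 43317 gene names on the array. Of these, 32 genes with 44 probes were well above background, all 32 on all 3 arrays, among 22620 genes measured. UBE2U was not well above background on any array. The family was chosen by name with earlier results of these data known, so its counts and values are descriptions.

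SMARCA4, also called BRG1, is the motor subunit of SWI/SNF, a complex that moves nucleosomes, and the study asked which genes depend on it. There were 3 groups of 1 array each: SMARCA4-KD1 and SMARCA4-KD2, each treated with an siRNA against SMARCA4, and NC, the scrambled negative control, with Lipofectamine 3000 given as the transfection reagent. All of the RNA was from HCT116 cells grown in McCOY's 5A medium with serum. Because each condition had 1 array, the spread between replicates is unknown, no test could be made, and differences are given as sizes beside the share of all genes past the same fold. The sample titles name SMARCA4, whereas the treatment field names PRMT1, and the knockdown number was taken from that field. Signals are written below in the order SMARCA4-KD1, SMARCA4-KD2, NC, and pairs of folds or log2 fold changes in the order SMARCA4-KD1, SMARCA4-KD2, each against NC. SMARCA4 itself had a processed signal (an intensity) of 3960 and 4129, with 14026 in NC, and so was 3.76-fold and 3.47-fold lower after knockdown, whereas PRMT1 was 1.20-fold and 1.29-fold higher. Both knockdown arrays were on 1 slide and the NC array on another, so slide and knockdown cannot be told apart. The share of probes well above background was 45.7% to 47.3%, and no spot was saturated. Of 8 epithelial markers, 7 were measured, and their levels, in units of each array's 75th percentile, summed to 1730, 1757 and 1686. Of these 7, CLDN7 was at least 1.5-fold higher in both knockdowns (6.35% of all genes were), with log2 fold changes of 0.79 and 0.72. None was at least 1.5-fold lower in both (8.05% of all genes). Of 9 markers of other cell types, 4 were measured, among them PTPRC with signals of 49.4, 37.0 and 46.3, COL1A1 with 477, 387 and 348 and VWF with 27.9, 52.0 and 24.1.

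Ubiquitin is activated by an E1 enzyme, passed to the catalytic cysteine of an E2 enzyme, and transferred to a substrate with the help of an E3 ligase. The E2 enzyme often decides whether a single ubiquitin or a chain is made, and through which lysine the chain is linked. A few E2 enzymes carry a ubiquitin-like modifier, such as NEDD8, SUMO or ISG15, instead.

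The siRNA-1 against SMARCA4 given in the labels was 19 bases long and is shown 5′ to 3′ because the siRNAs define the knockdowns. The labels do not tie it to an array.
SMARCA4 siRNA-1: ucgcuuugguucgcaaauc

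Each array value is the brightness of a probe of 60 bases. Shown 5′ to 3′ are the probes of UBE2E1 and UBE2F, which carried the largest differences in either direction, of UBE2E3, the relative of UBE2E1, and the second probe of UBE2V1. Capitals mark the longest exact run shared with any probe of another gene on the array (the first such run where there were several), which was 14 bases for UBE2E3 and 13 bases for the others.
UBE2E1: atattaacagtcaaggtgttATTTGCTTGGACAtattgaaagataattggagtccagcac
UBE2F: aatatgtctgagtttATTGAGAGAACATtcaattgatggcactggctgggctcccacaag
UBE2E3: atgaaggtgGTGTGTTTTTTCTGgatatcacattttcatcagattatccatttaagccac
UBE2V1: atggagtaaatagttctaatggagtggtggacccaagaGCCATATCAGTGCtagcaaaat

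In the deposited files these probes lie, in hg19, at chr3:23930634-23930693 on the plus strand for UBE2E1, chr2:238934042-238939244 on the plus strand for UBE2F, chr2:181922488-181922547 on the plus strand for UBE2E3 and chr20:48699418-48700691 on the minus strand for UBE2V1. The probes of UBE2F and UBE2V1 span 5203 and 1274 bases of the genome with 60 bases of probe, as probes across an exon junction do.

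UBE2E1 stood out from the other members. It gave a signal of 584 on either knockdown array but 125 on the NC array. Relative to each array's 75th percentile, it stood 4.41-fold above NC after the first knockdown and 4.58-fold after the second, which placed it 10th of the 22620 genes when ranked by the smaller of the 2 changes. UBE2E1 is a class III E2 enzyme with an N-terminal extension, and the knockdown arrays differed for it by 0.05 on the log2 scale. The error that the image extraction assigned to each of its log2 fold changes was 0.21, which covers the spot and not the spread between cultures. The array holds 1 probe for UBE2E1. In RNA of a whole culture, more cells with a transcript and more of it per cell cannot be told apart.

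Along with UBE2E1, the genes UBE2N and UBE2B passed 1.5-fold above NC in both knockdowns, and UBE2F passed 1.5-fold below NC in both. That made 3 of 32 members higher (9.38% of members, against 6.35% of all genes) and 1 of 32 lower (3.12%, against 8.05% of all genes). In SMARCA4-KD1 alone, 4 members were at least 1.5-fold higher (11.2% of all genes were) and 1 was lower (12.3% of all genes). In SMARCA4-KD2 alone, 3 members were higher (10.1% of all genes) and 2 were lower (9.77% of all genes). The split of 3 higher and 1 lower in both knockdowns became 3 and 3 after quantile normalization, with UBE2H and UBE2T added below NC (5.67% of all genes were then higher and 8.59% lower), and 3 and 2 when the percentile was taken over well-detected probes, with UBE2H added (5.17% and 9.27% of all genes). At a 2-fold threshold UBE2E1 was the 1 member higher in both knockdowns (1.46% of all genes were) and 0 were lower (2.11% of all genes).

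**Figure D1:**
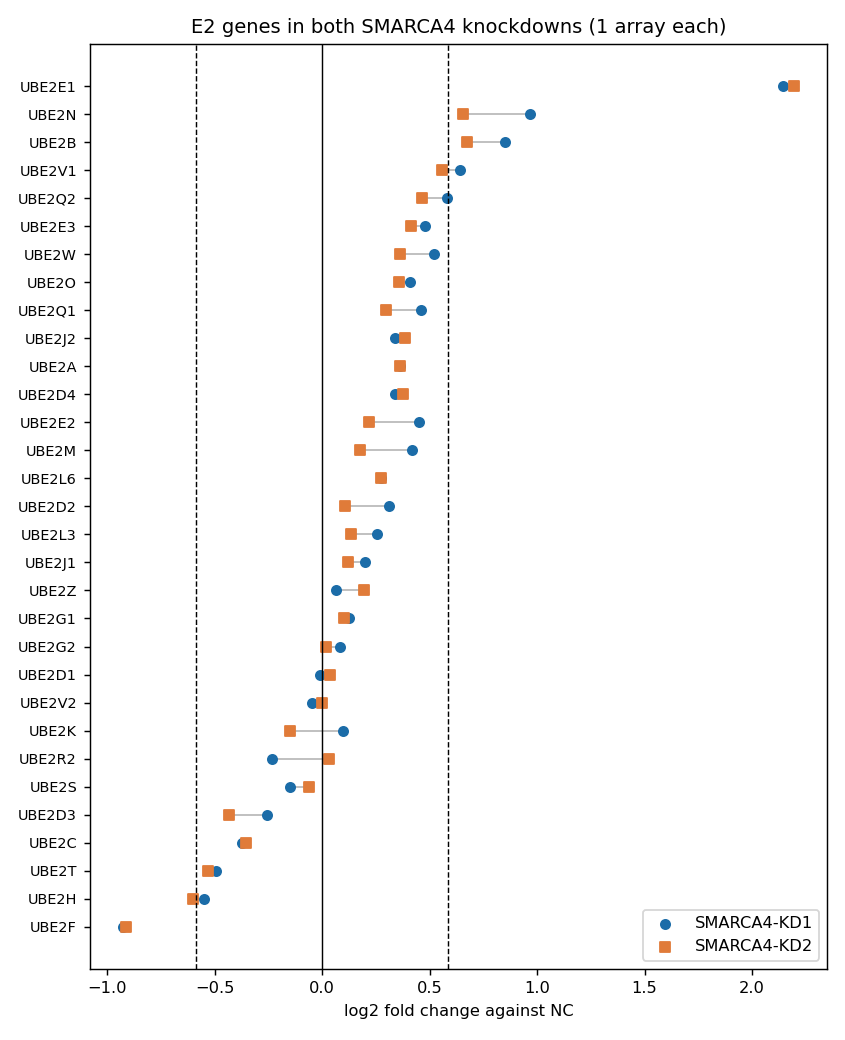
Log2 fold change of 31 of the 32 measured E2 genes against NC (x axis) in SMARCA4-KD1 (circles) and SMARCA4-KD2 (squares), with 1 array per condition, genes ordered by their mean and dashed lines at 1.5-fold. UBE2E1 lies at 2.14 and 2.19, far to the right of the next gene, UBE2N at 0.97 and 0.65, and UBE2F lies lowest at about -0.92.

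Smaller differences leaned upward. Of the 32 members, 21 (65.6%) were above NC in both knockdowns by any size, against 41.1% of all genes, and 6 (18.8%) were below NC in both, against 39.3% of all genes. The signs were opposite for 5 members, among them UBE2D1, UBE2K, UBE2R2 and UBE2V2. Among the 19497 genes that, like the members, were well above background on all arrays, 45.1% were above NC in both and 39.9% below. The median log2 fold change of the members was 0.26 and 0.16, while the medians of all genes were -0.00 and 0.02. The counts moved with the scaling: after quantile normalization 19 members were above and 10 below NC in both. The members' median of the mean log2 fold change was then 0.14 in place of 0.20. The medians of all genes moved down as well, to -0.03 and -0.02. The shares of all genes above and below NC were not counted under that setting.

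The knockdown arrays differed little from each other over the family. No member was 1.5-fold apart between SMARCA4-KD1 and SMARCA4-KD2, against 6.6% of all genes and 2.81% of the genes well above background on all arrays. With 32 members, this count is near the latter share. The difference, SMARCA4-KD1 minus SMARCA4-KD2, ran from -0.26 for UBE2R2 to 0.31 for UBE2N on the log2 scale. Its SD was 0.13 over members, 0.43 over all genes and 0.25 over the genes well above background on all arrays. Extreme genes enter the latter SDs, as the difference ran from -6.10 to 11.14 over all genes. The median absolute difference was closer, at 0.08 over members, 0.13 over all genes and 0.12 over the genes well above background on all arrays. SMARCA4-KD1 was the higher for 20 of 32 members, against 46.7% of all genes. Both comparisons share the NC array, so a deviation of that array enters both.

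The UBE2D and UBE2E enzymes work with many E3 ligases and were not uniform. Of these 7 genes, UBE2E1 was past 1.5-fold in both knockdowns, 5 were above NC in both including UBE2E1 (41.1% of all genes were), UBE2D3 was below NC in both and UBE2D1 had opposite signs. UBE2E3 gave signals of 2698, 2486 and 1825, which was 1.39-fold and 1.33-fold higher. UBE2E2 gave 657, 538 and 452, 1.37-fold and 1.16-fold higher. Both knockdown arrays were thus above NC for all UBE2E genes, with differences for UBE2E2 and UBE2E3 under 1.5-fold.

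Of the UBE2D genes, UBE2D4 had signals of 1978, 1957 and 1472, 1.27-fold and 1.30-fold higher. UBE2D2 had 5633, 4714 and 4277, 1.24-fold and 1.08-fold higher. UBE2D1 had 1702, 1696 and 1617, with log2 fold changes of -0.01 and 0.04. UBE2D3 went the other way. Its signals were 12649, 10787 and 14227, so that NC was 1.19-fold and 1.35-fold above the knockdowns. When the probes of a gene were averaged, the mean log2 fold change of UBE2D3 moved from -0.34 to 0.05 with a dim probe included.

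The gene nearest to UBE2E1 on the array by position was NKIRAS1, an inhibitor of NF-kappaB signaling, whose probe lies 4023 bases after that of UBE2E1. NKIRAS1 gave 757, 644 and 461, 1.55-fold and 1.37-fold higher. On the other side, the antisense gene UBE2E1-AS1 was not well above background on any array, and the nearest gene that was on all arrays was UBE2E2, 299023 bases before. Differences of the neighbours were therefore smaller than that of UBE2E1.

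**Figure D2:**
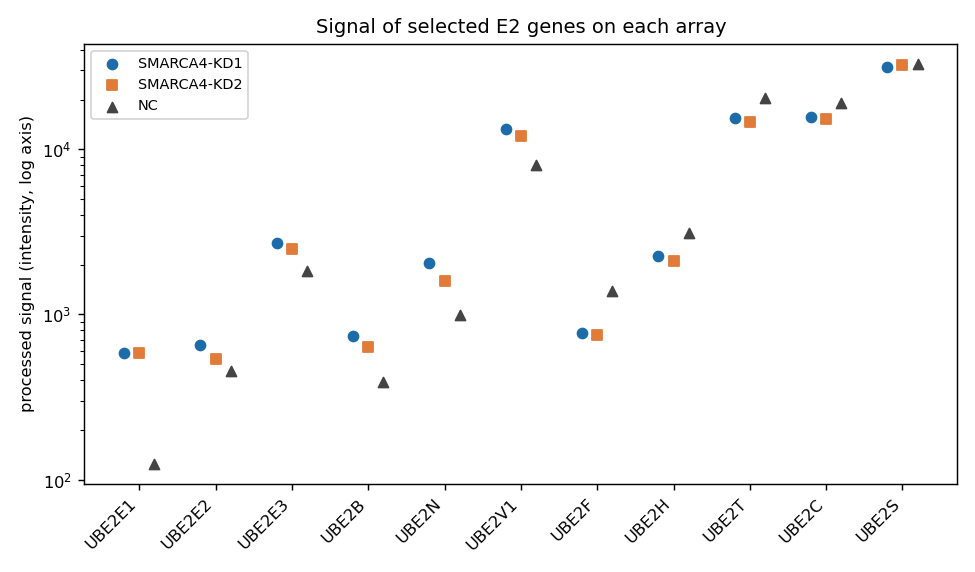
Processed signal (intensity, log axis) of 11 E2 genes on each array: SMARCA4-KD1 (circles), SMARCA4-KD2 (squares) and NC (triangles), 1 array each. Symbols are to be compared within a gene only; both knockdown arrays lie above NC from UBE2E1 to UBE2V1 and below NC from UBE2F to UBE2S.

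The group of DNA repair and damage tolerance held 6 measured genes. Of these 6, UBE2N and UBE2B were past 1.5-fold above NC in both knockdowns (6.35% of all genes were), and none was past 1.5-fold below (8.05% of all genes). UBE2N, also called UBC13, builds lysine-63-linked chains together with the catalytically inactive partners UBE2V1 and UBE2V2. For UBE2N the signals were 2054, 1594 and 991, 1.95-fold and 1.57-fold higher. UBE2V1 gave 13318, 12106 and 8043, 1.56-fold and 1.47-fold higher and so just outside the rule. UBE2V2 gave 841, 837 and 818, with log2 fold changes of -0.05 and 0.00. UBE2N and UBE2V1 were thus higher on both knockdown arrays, and UBE2V2 was near NC.

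UBE2A and UBE2B are the human counterparts of yeast Rad6, which ubiquitinates PCNA with RAD18 and histone H2B with RNF20 and RNF40. For UBE2B the signals were 745, 635 and 389, 1.80-fold and 1.60-fold higher. UBE2A, its close paralog, gave 6950, 6691 and 5096, 1.29-fold and 1.28-fold higher. After normexp background correction UBE2B was 1.64-fold and 1.45-fold higher and no longer past 1.5-fold in both. Of 10 E3 ligases and related genes of this group, 1, RNF40, was at least 1.5-fold lower in both knockdowns, with log2 fold changes of -0.96 and -0.75, and none was higher, while 8.05% of all genes were lower and 6.35% higher. RAD18 had log2 fold changes of 0.31 and -0.06.

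UBE2T is the E2 enzyme that works with FANCL to monoubiquitinate FANCD2 and FANCI. It gave signals of 15469, 14545 and 20524, so that NC was 1.41-fold and 1.44-fold higher. Of 8 partners of UBE2T, 6 were below NC in both knockdowns (39.3% of all genes were), and 1, USP1, which removes ubiquitin from FANCD2, was at least 1.5-fold lower in both (8.05% of all genes), with log2 fold changes of -0.66 and -0.69. FANCL had log2 fold changes of 0.05 and -0.11.

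UBE2C and UBE2S start and elongate chains for the anaphase-promoting complex (APC/C), which drives exit from mitosis. UBE2C gave 15655, 15260 and 19085, so that NC was 1.29-fold and 1.28-fold higher. UBE2S gave 31434, 32158 and 32823, with log2 fold changes of -0.15 and -0.06. Both were below NC on both knockdown arrays by less than 1.5-fold. Beside them, all 15 proliferation markers were below NC in both knockdowns (39.3% of all genes were), 9 of 15 by at least 1.5-fold (8.05% of all genes), with a median of the mean log2 fold change of -0.76 and levels that summed to 229.8, 244.4 and 423.5 in units of the 75th percentile. The markers with the largest differences in log2 fold change were MYBL2 (-1.85 and -1.80), FOXM1 (-1.57 and -1.23), MKI67 (-1.15 and -1.17), CENPF (-1.20 and -1.10) and KIF20A (-1.32 and -1.01), ranked by the smaller change. Their part in the levels of UBE2C, UBE2S and UBE2T was not tested. Of 17 APC/C genes, ANAPC16 and the APC/C inhibitor FBXO5 were at least 1.5-fold lower in both, with log2 fold changes of -0.74 and -0.64 and of -0.73 and -0.70, and the coactivator FZR1 was at least 1.5-fold higher, at 0.74 and 0.60. These 2 of 17 lower and 1 of 17 higher stand beside 8.05% and 6.35% of all genes. The median over the 17 genes was 0.10.

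Enzymes for ubiquitin-like modifiers held the member with the largest difference below NC. UBE2F and UBE2M both charge cullins with NEDD8, UBE2F mainly for CUL5 and UBE2M for the other cullins. Signals of UBE2F were 777, 754 and 1390, so that NC was 1.90-fold and 1.88-fold higher. By the smaller of its changes it was 622nd among the genes below NC. UBE2M was 1.33-fold and 1.13-fold above NC. The direction of UBE2F was thus opposite to that of UBE2M on both arrays. None of 11 cullin and NEDD8 pathway genes was 1.5-fold apart in both knockdowns (8.05% of all genes were lower and 6.35% higher). Their median was -0.03. CUL5 had log2 fold changes of -0.02 and -0.08, and NEDD8 itself had 0.48 and 0.42.

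UBE2L6, which conjugates ISG15, was 1.21-fold above NC in both knockdowns. Of 6 genes of the ISG15 system, 5 were measured and none was 1.5-fold apart in both (8.05% of all genes were lower and 6.35% higher).

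Among the chain builders and the enzymes of endoplasmic reticulum quality control, none of 6 was past 1.5-fold in both knockdowns. Of all genes, 8.05% were lower and 6.35% higher. UBE2J2, an enzyme of endoplasmic reticulum-associated degradation (ERAD), was 1.26-fold and 1.31-fold above NC, and UBE2J1 and UBE2G2, of the same pathway, had log2 fold changes of 0.20 and 0.12 and of 0.08 and 0.02. UBE2G1 had 0.12 and 0.10, UBE2K had 0.10 and -0.15, and UBE2R2, a paralog of CDC34, had -0.23 and 0.03. Of 10 measured ERAD ligases and partners, AUP1, which recruits UBE2G2, was higher in both knockdowns with log2 fold changes of 1.35 and 1.21, and the ligase SYVN1 with 0.73 and 0.63. These 2 of 10 stand beside 6.35% of all genes. The median of that list was -0.04.

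Of the remaining E2 enzymes, 6 of the 7 measured were above NC in both knockdowns, against 41.1% of all genes. UBE2Q2 lay just outside the rule at 1.49-fold and 1.38-fold, and UBE2W, which adds ubiquitin to protein N termini, was at 1.44-fold and 1.28-fold. UBE2O, UBE2Q1, UBE2L3 and UBE2Z were between 1.05-fold and 1.38-fold above NC. UBE2H went the other way, with signals of 2258, 2097 and 3109, so that NC was 1.46-fold and 1.52-fold higher. UBE2H is the E2 enzyme of the CTLH (GID) ligase.

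The steps before the E2 enzymes were read as well. Of 9 measured E1 enzymes, none was 1.5-fold apart in both knockdowns (8.05% of all genes were lower and 6.35% higher). The main ubiquitin E1, UBA1, had log2 fold changes of 0.23 and -0.19. The 11 ubiquitin and ubiquitin-like modifier genes also held none, beside the same shares of all genes, with a median of 0.19. Of 9 measured genes that have an E2 fold but another name, 1, BIRC6, was at least 1.5-fold higher in both (6.35% of all genes were), at 0.59 and 0.61, and the median was 0.22. CDC34 had 0.09 and 0.12. A further 10 names start with UBE2 but are antisense genes, pseudogenes or other forms. None of the 6 measured was 1.5-fold apart in both, beside the same shares of all genes. UBE2NL, a near-copy of UBE2N with a probe of its own, had 0.25 and 0.18, and binding of its transcripts to the probe of UBE2N was not tested.

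Where a gene had more than 1 probe, most probes pointed the same way. There were 12 further probes for 10 members, 11 of them well above background on all arrays, and 7 of these 11 had the sign of the brightest probe in both knockdowns, with a median absolute difference of 0.19 in the mean log2 fold change. The second probe of UBE2V1, shown above, gave 0.61 and 0.24, and that of UBE2H gave -0.37 and -0.32. A second probe of UBE2E3 gave 0.54 and 0.44, and one for another transcript gave -0.15 and -0.12. The second probes of UBE2D4, at -0.17 and 0.07, and of UBE2Z, at 0.25 and -0.02, differed in sign from the brightest probe in 1 knockdown each.

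A probe past 1.5-fold without the sign of the brightest probe was seen for UBE2D3, and it was dim. This probe was well above background on 2 of the 3 arrays, with 19.4, 55.5 and 18.1 and log2 fold changes of 0.01 and 1.58. UBE2E1, UBE2N, UBE2B and UBE2F each rested on 1 probe, so no other probe could be set beside them.

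Promoter sequence was read from a reference set of promoters (GRCh38.p14), which held windows of 300 bases for 26 of the 33 members. UBE2B, UBE2C, UBE2H, UBE2Q1, UBE2V2 and UBE2W were among those with no entry in that set. Windows were searched on both strands for motifs tied to cell cycle promoters, and no motif contains another. The cell cycle homology region (CHR), spelled TTTGAA, was in 3 of 38 member windows (7.89%) against 15.2% of 35116 windows. The CCAAT box, spelled CCAAT, was in 11 of 38 windows (28.9%) against 34.6%. An E2F-like motif, spelled TTCCCGC, was in 3 of 38 windows (7.89%) against 6.55%. Another E2F-like motif, spelled TTGGCGC, was in 1 of 38 windows (2.63%) against 3.04%. Some members had more than 1 window, so windows are not separate members. By gene, the CHR was in 3 of 26 members, CCAAT in 9, TTCCCGC in 3 and TTGGCGC in 1. Shares by gene were not counted over all promoters. The members with the CHR letters were UBE2F, UBE2T and UBE2U.

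Shown are the 250 bases before the start of UBE2E1 (the first of its starts), of UBE2F and of UBE2T, the former pair being the members furthest from NC and the last a member with the CHR letters, with motif letters in capitals. In UBE2F, the CHR letters began 75 bases before the start and the CCAAT box 224 and 172 bases before it, and in UBE2T they began 153 bases and 124 and 73 bases before it. No motif was in this window of UBE2E1, whereas the window of its other start held a CCAAT box 247 bases before that start. A match is a run of letters and not a measured site.
UBE2E1 promoter (chr3:23805705-23805954, plus strand): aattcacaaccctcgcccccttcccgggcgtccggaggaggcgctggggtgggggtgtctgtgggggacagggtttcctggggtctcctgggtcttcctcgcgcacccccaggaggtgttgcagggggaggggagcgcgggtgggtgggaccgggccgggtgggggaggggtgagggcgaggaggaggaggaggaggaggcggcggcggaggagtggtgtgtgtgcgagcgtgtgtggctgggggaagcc
UBE2F promoter (chr2:237966764-237967013, plus strand): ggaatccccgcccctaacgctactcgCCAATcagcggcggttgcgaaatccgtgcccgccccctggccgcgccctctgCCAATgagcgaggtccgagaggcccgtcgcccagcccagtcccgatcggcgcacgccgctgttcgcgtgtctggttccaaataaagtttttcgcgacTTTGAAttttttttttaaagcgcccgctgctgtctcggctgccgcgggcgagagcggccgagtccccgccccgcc
UBE2T promoter (chr1:202341937-202342186, minus strand): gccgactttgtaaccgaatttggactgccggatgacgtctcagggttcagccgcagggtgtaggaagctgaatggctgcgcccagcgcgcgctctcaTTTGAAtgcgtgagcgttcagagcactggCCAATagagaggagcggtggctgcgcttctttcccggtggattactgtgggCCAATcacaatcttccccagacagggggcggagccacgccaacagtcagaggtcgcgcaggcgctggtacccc

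The 4 members past 1.5-fold kept their direction under each other way of processing that was tried. The mean log2 fold change of UBE2E1 ran from 1.72 to 2.17, that of UBE2N from 0.76 to 0.82, that of UBE2B from 0.62 to 0.76 and that of UBE2F from -0.97 to -0.88. The lowest value of UBE2E1 came from normexp background correction, under which it was 3.25-fold and 3.34-fold above NC.

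**Figure D3:**
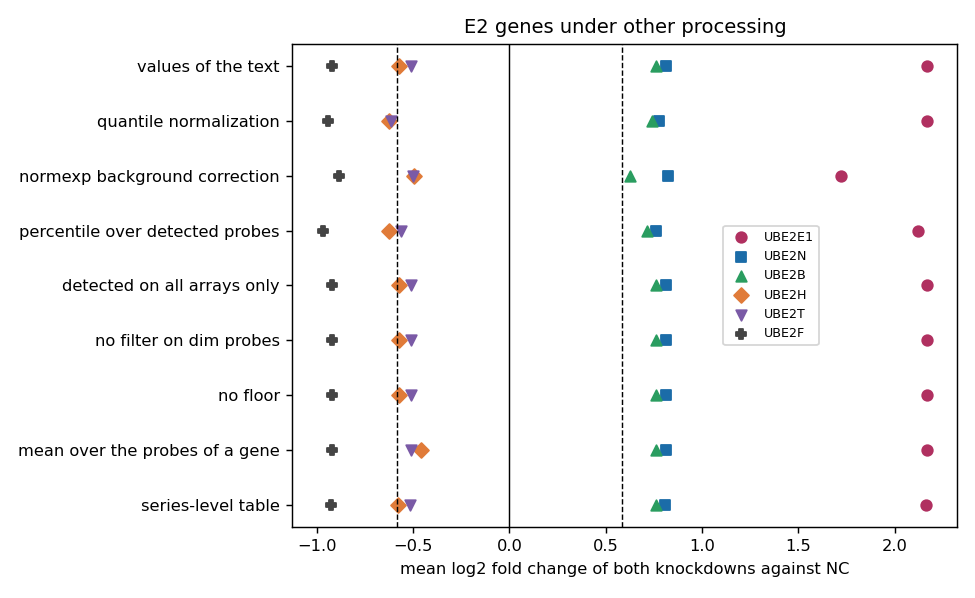
Mean log2 fold change of both knockdowns against NC (x axis) for 6 E2 genes under the processing used in the text and 8 others (y axis), with dashed lines at 1.5-fold. UBE2E1 stays at 1.72 or above, UBE2N and UBE2B stay above the right line, UBE2F stays below the left line, and UBE2H and UBE2T lie on either side of it.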

How the data were processed

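RNA of 3 HCT116 samples was labelled with Cy3 and hybridized to 1-colour Agilent arrays. The authors extracted spots with Agilent Feature Extraction 10.7.1.1 (probe positions hg19), and the deposited values are intensity (processed signal, background-subtracted and detrended, not scaled between arrays). The deposited files also hold other columns, such as 0 or 1 flags and a well-above-background call, used as given. The deposited series-level table was equal to the scanner intensity of E2 probes within 0.1%.

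Control spots and outlier spots were left out. From log2 of the intensity the 75th percentile of the array's 58201 probes was subtracted. Values that were not well above background and lay under the array's lowest well-above-background value were raised to it. The 29334 probes that passed the well-above-background call on 1 array or more were kept. Each of the 22620 genes was read by its brightest probe. A gene was counted at 1.5-fold or more. No test was made with 1 array per condition, and precision is limited by the number of arrays. Spots of a probe printed repeatedly varied by a median SD of 0.03 to 0.04 (log2) within an array, which covers spots and not cultures. The counting was checked on simulated data with less noise than lay between the knockdown arrays and with changes larger than 1.5-fold. That check therefore does not bear on genes near 1.5-fold or on the spread between cultures. Python 3.11.15, numpy 2.4.6 (also for quantile normalization), pandas 2.3.3, R 4.3.3 and limma 3.58.1 (normexp with an offset of 50) were used. The members and lists were chosen with earlier results of these data known. Every member was named except where an item is not reported here, with signals for those past 1.5-fold in both knockdowns, UBE2C, UBE2S, UBE2T, the UBE2D and UBE2E genes and genes whose probes disagreed in direction past 1.5-fold, and of each list the members past 1.5-fold in both (at most 5). UBE2A, UBE2H, UBE2V1, UBE2V2, RAD18, FANCL, CUL5, NEDD8, UBA1, CDC34, UBE2NL and PRMT1 were given more values after these were seen. The arrays of the PRMT1 knockdown were not used here.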

Additional observations from a re-analysis of the deposited data

How the results depend on the processing

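The processing was changed 1 choice at a time: quantile normalization, normexp background correction, a percentile over well-detected probes (above background on all 3 arrays), those probes alone, no filter on dim probes, dim values left as measured, averaging of a gene's probes, the deposited series-level table, and a 2-fold threshold. Of 70 counts and medians of the E2 genes, 58 stayed within limits (counts within 1.5 times, medians within 0.09) and 12 moved, and of 256 single-gene values 237 stayed and 19 moved by more than 0.09 (log2). E2 genes lower in both knockdowns, 1 in the values above, numbered 3 after quantile normalization, 2 with the percentile over well-detected probes and 0 at 2-fold. Lower in SMARCA4-KD1 they numbered 3, 2 and 0 in the same order. Lower in SMARCA4-KD2 they numbered 1 after normexp, 1 with the mean over probes and 0 at 2-fold. At 2-fold, 1 gene was higher in both knockdowns, 1 in SMARCA4-KD1 and 1 in SMARCA4-KD2. Single-knockdown shares of all genes were counted at 1.5-fold under the processing used in the text and not under these settings. For the single-knockdown counts, a move of the members and an array-wide shift therefore cannot be told apart. All genes past 1.5-fold in both knockdowns also moved, from 6.35% higher and 8.05% lower to 3.99% and 3.8% after normexp and to 5.17% and 9.27% with the percentile over well-detected probes. The median log2 fold change of all genes was -0.15 in both knockdowns without the filter, against -0.00 and 0.02 with it. Genes under the lowest well-above-background value on all 3 arrays, such as UBE2U, were given -0.15 in both knockdowns by the replacement of dim values alone. The lowest well-above-background value that replaced them differed between arrays, so -0.15 is not a measured difference of such genes. The cause of the other moves was not tested. No paired analysis was possible because each condition had 1 array. The signal of the 32 measured E2 genes in NC ran from 125 to 32823, and UBE2U was not well above background.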
